A study of Macaca fascicularis with 6 samples.

Results

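The epithelium of the cynomolgus monkey cornea 3 days after injury was compared with that of uninjured corneas, using every cell barcode in each sample. The comparison took 4 of the 6 samples of the series and 5146 of its 7895 barcodes. The uninjured group (day 0) held 1565 and 1417 barcodes, and the day 3 group held 1096 and 1068. Both groups, and the 2 samples taken at day 1, were corneal epithelial cells of wild-type Macaca fascicularis with no other allele or agent named. The labels say neither how the cornea was injured nor which animals the samples came from, so a p-value reflects only how far these samples differ, and that spread may be technical. The barcodes of each sample were added up and compared across all genes; day 1 values are given beside the result, and its comparison shares the uninjured samples with the day 3 comparison.

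The corneal epithelium is a stratified, non-keratinising sheet whose differentiated cells carry the keratin pair KRT3 and KRT12 and the crystallin-like enzyme ALDH3A1. It is renewed from progenitors at the limbus, the rim of the cornea, and is held to its basement membrane by hemidesmosomes. After a wound the cells at the margin loosen these contacts, lay down a provisional matrix rich in fibronectin, migrate as a sheet, and later divide and stratify again. Wounded stratified epithelia are known for making the stress keratins KRT6A, KRT16 and KRT17 and the calcium-binding alarmins S100A8 and S100A9.

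The summed samples held 4231412 and 4807975 counts without injury and 4894181 and 4584176 at day 3. The median barcode held 2462 and 3023 counts in uninjured samples against 4447 and 4145 at day 3, so detection was compared after each barcode was thinned to 1000 counts. Mitochondrial transcripts took 9.12% and 9.32% of counts without injury and 4.52% and 4.39% at day 3. Levels are counts per 1000000 (CPM) of the library size scaled with TMM, a trimmed mean of ratios between samples. The 2 samples of a group differed by more than counting error (chi-square over its degrees of freedom 1.92 for the uninjured pair and 2.06 for the day 3 pair). The label of corneal epithelium was read against its markers. Thinned shares for KRT5 were 98.1% and 98.5% of barcodes uninjured and 95.6% and 96.2% at day 3. ALDH3A1 was in 90.3% and 91% of uninjured barcodes and in 81.5% and 79.4% at day 3. The cornea-specific keratin KRT12 was in fewer, 48% and 51.4% of uninjured barcodes and 55.7% and 56.5% at day 3. Its partner KRT3 was in 41.9% and 45.2% of uninjured barcodes and in 35% and 33.7% at day 3. EPCAM, a general epithelial marker, was almost absent, at 3.39 and 3.31 CPM in the uninjured samples and 1.15 and 3.68 CPM at day 3.

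Of 12294 genes tested, 3545 were higher and 3247 lower at day 3 (edgeR quasi-likelihood test, adjusted p under 0.05), or 55.2% of the genes tested, with 28.8% higher and 26.4% lower. Both day 3 samples lay above both uninjured samples in 38.4% of the genes and below them in 40.6%. Of the calls, 52.2% were higher, but only 24.2% when samples were scaled to their totals alone, a scaling that moved the median log2 change of all genes from -0.03 to -0.46. Changes below are relative to the TMM scale. A test against a 2-fold change called fewer genes, 858 higher and 575 lower (11.7% of the genes tested, 6.98% higher and 4.68% lower). The 95% interval of the log2 change lay within 2-fold in 6550 genes, 53.3% of those tested, and 2598 of these had also been called. In a sum over barcodes, more cells holding a transcript and more of it per cell cannot be told apart. Since a large share of all genes was called, a gene list's count is read against 28.8% higher and 26.4% lower. The low-count filter admitted a gene with enough counts in any 2 samples. A list member at or near 0 counts without injury was thus tested through its counts after injury and could rise but not fall. The reverse holds for members absent at day 3, and the shares over all genes hold such genes too.

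**Figure D1:**
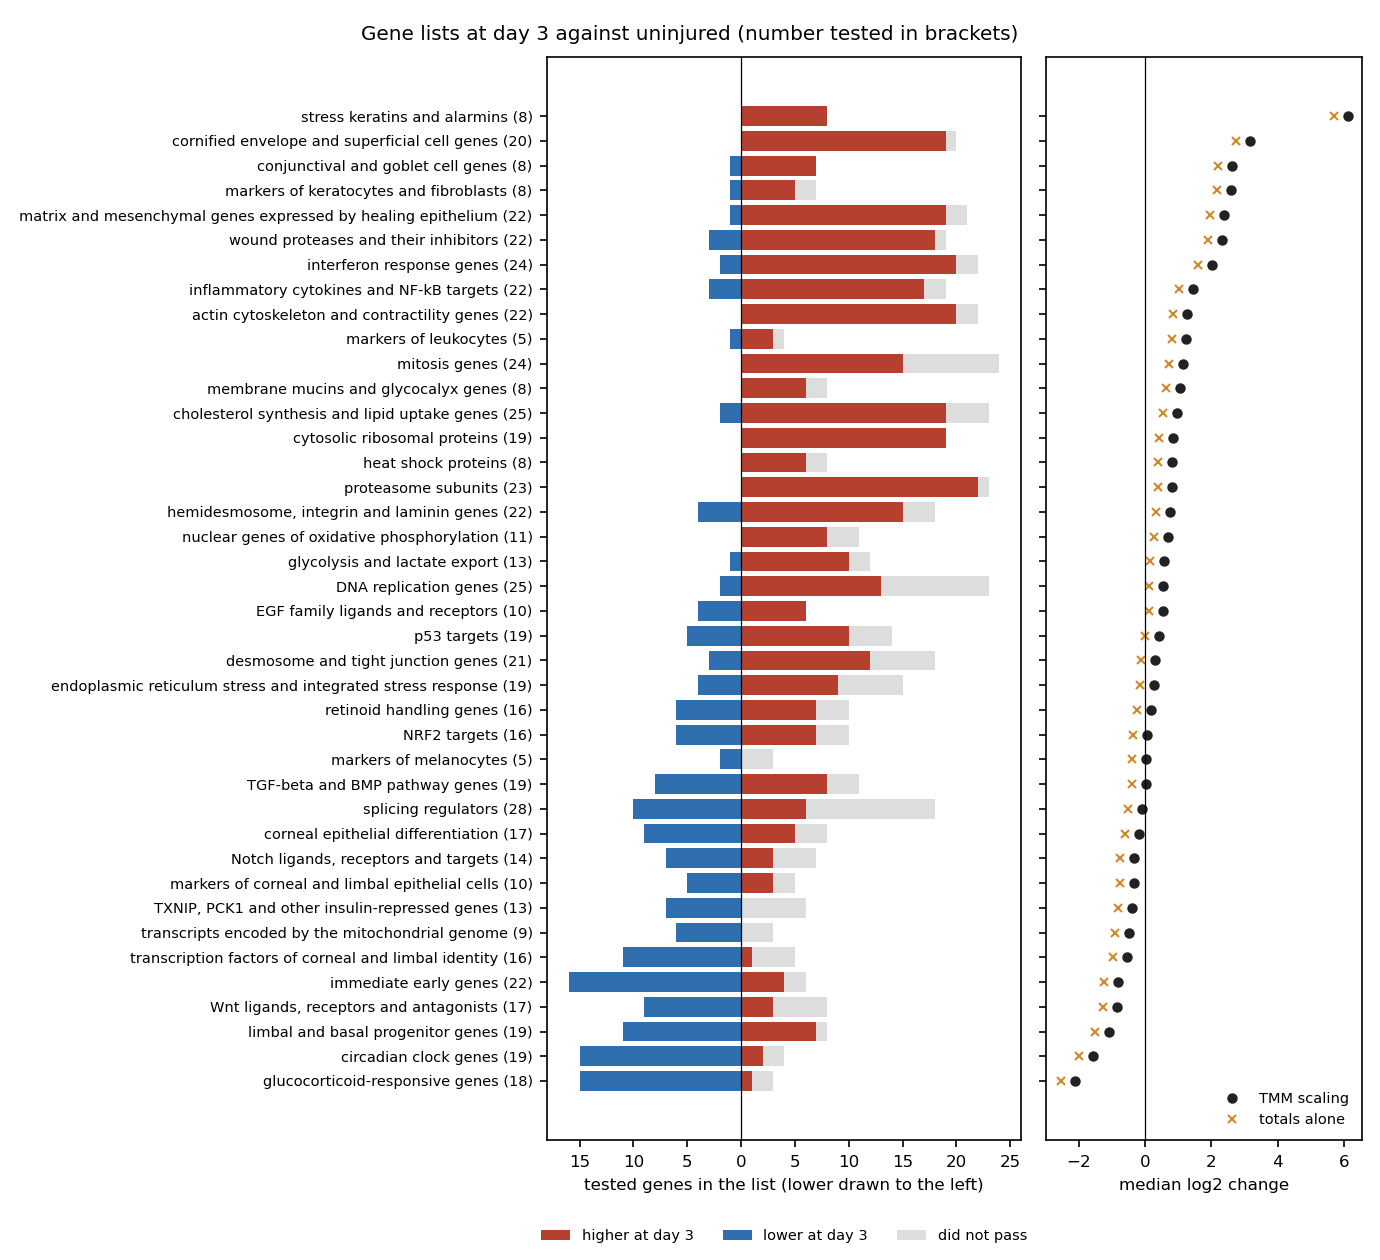
For each gene list with at least 5 members tested, the left panel gives how many members rose at day 3 (to the right), fell (to the left) or did not pass the test (grey), and the right panel gives the median log2 change of day 3 against uninjured with TMM scaling (dots) and with totals alone (crosses). The wound keratin and alarmin list, with a median of 6.10, and the cornified list, with 3.15, lie farthest to the right.

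Stress keratins and alarmins showed the largest group change. Of the 14 genes in this list 8 were tested, and 8 rose, with a median log2 change of 6.10 against -0.03 for all genes. KRT16, a type I keratin of wounded and fast-renewing epidermis, stood at 10.4 and 10.6 CPM in the uninjured samples and 5940.1 and 5268 CPM at day 3 (534-fold higher, log2 change 9.06 ± 0.15, adjusted p = 5.3e-12). Its partner KRT6A stood at 119 and 107 CPM in the uninjured samples and 14783 and 14258 CPM at day 3 (128-fold higher, adjusted p = 5.3e-12). KRT17, another stress keratin, stood at 60.8 and 61.1 CPM in the uninjured samples and 1456 and 1370.0 CPM at day 3 (log2 change 4.54 ± 0.09, adjusted p = 2.7e-11). For these 3 keratins each day 3 sample lay above both uninjured samples by more than 10-fold, and replicates within a group lay close together. S100A9, which pairs with S100A8 in calprotectin, an antimicrobial and chemotactic protein, stood at 95.8 and 122 CPM in the uninjured samples and 12800.0 and 12197 CPM at day 3 (115-fold higher, log2 change 6.84 ± 0.15, adjusted p = 5.0e-11). S100A8 stood at 32.5 and 39.6 CPM in the uninjured samples and 4279 and 4684 CPM at day 3 (124-fold higher, log2 change 6.95 ± 0.21, adjusted p = 5.0e-10). The secreted protease inhibitor PI3 (elafin) stood at 5.58 and 8.72 CPM in the uninjured samples and 281 and 315 CPM at day 3 (log2 change 5.36 ± 0.23, adjusted p = 7.5e-09). SLPI, a related inhibitor, stood at 1.79 and 3.49 CPM in the uninjured samples and 66.3 and 63.5 CPM at day 3 (log2 change 4.58 ± 0.20, adjusted p = 8.2e-09). At day 1 these genes were already above the uninjured level, KRT6A at 3637 and 4057 CPM and S100A9 at 4802 and 3948 CPM, but KRT16 was at only 99.6 and 80.7 CPM. Keratins share long stretches of sequence, so counts of KRT6A, KRT14, KRT16 and KRT17 are uncertain where reads of near copies could be split.

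**Figure D2:**
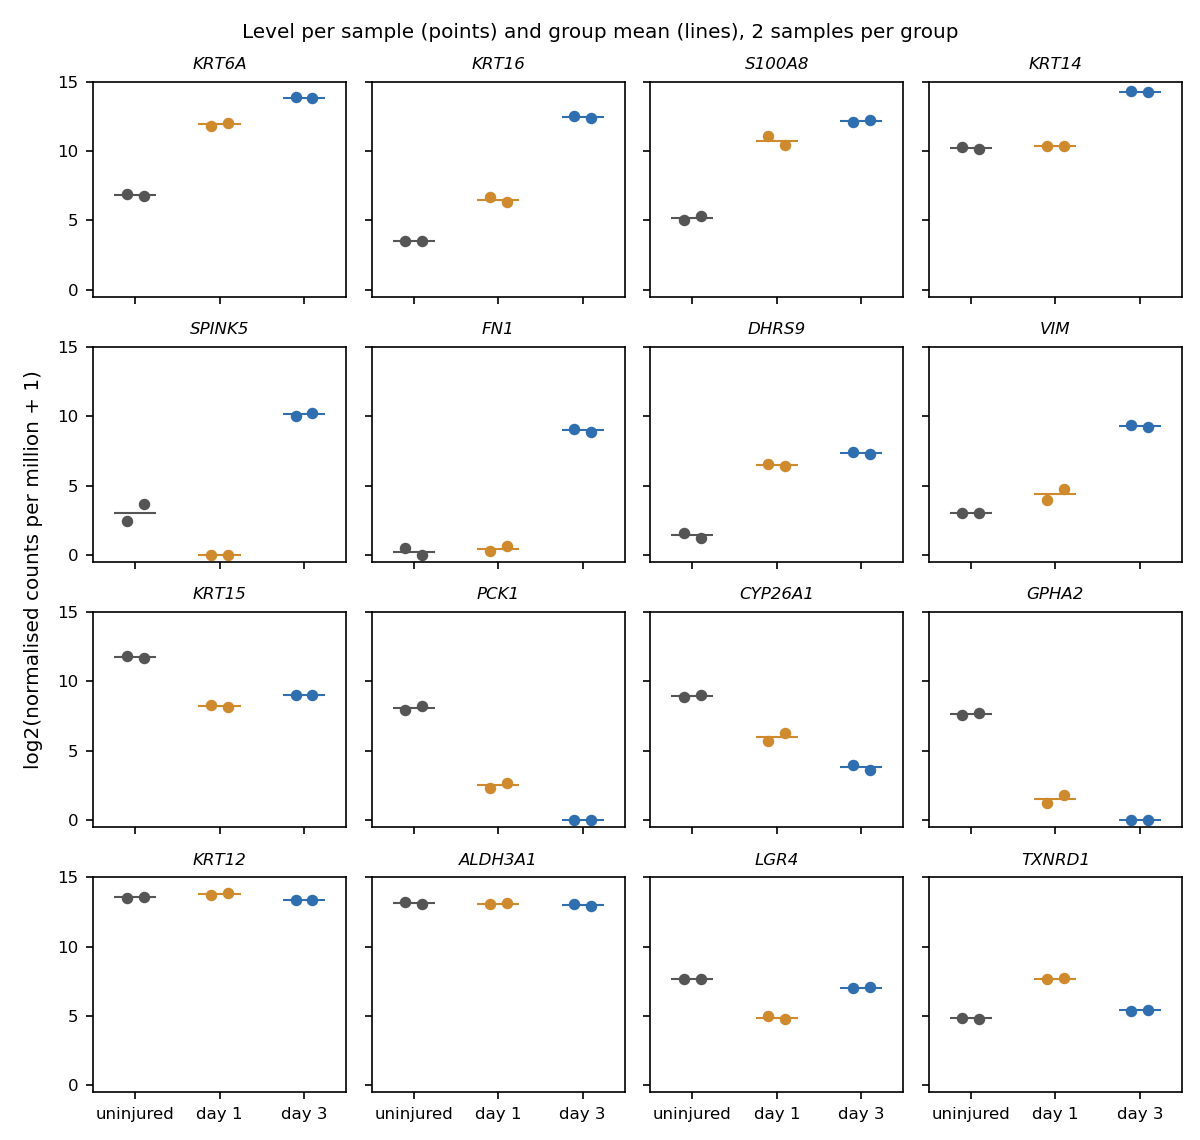
Points give log2 of CPM plus 1 in each of the 2 uninjured, 2 day 1 and 2 day 3 samples for 16 genes, and short lines mark the group means. KRT6A, KRT16, FN1, DHRS9 and VIM are highest in the day 3 samples, PCK1 and GPHA2 reach 0 there, and KRT12 and ALDH3A1 stay near their uninjured level.

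Genes of the differentiated cornea stayed near their uninjured level in part and fell in part. In the corneal differentiation list, of 17 tested, 5 rose, 9 fell and 3 did not pass the test, with a median log2 change of -0.18; with totals alone 3 rose and 12 fell, with a median of -0.61. ALDH3A1, a corneal crystallin enzyme, stood at 9292 and 8621 CPM in the uninjured samples and 8535 and 7881 CPM at day 3, and its log2 change of -0.13 ± 0.08 did not pass the test (adjusted p = 0.21, 95% interval -0.30 to 0.05). The cornea-specific keratin KRT12 stood at 11772 and 11990.0 CPM in the uninjured samples and 10414 and 10499 CPM at day 3 (log2 change -0.18 ± 0.07, adjusted p = 0.046). That small difference was not called without any 1 of the 4 samples (log2 change -0.19 to -0.17) and was 0.04 on thinned counts. Its partner KRT3 fell from 3497 and 3697 CPM to 2245 and 2137 CPM (log2 change -0.72 ± 0.08, adjusted p = 1.9e-05). KLF4, a transcription factor of stratified differentiation, fell from 1005 and 1078 CPM to 503 and 494 CPM (log2 change -1.06 ± 0.08, adjusted p = 6.9e-07). TGFBI, the matrix protein mutated in corneal dystrophies, fell from 3778 and 3629 CPM to 2508 and 2395 CPM (log2 change -0.60 ± 0.07, adjusted p = 3.8e-05). KRT24 rose within the same list, from 918 and 1147 CPM to 4399 and 3577 CPM (log2 change 1.95 ± 0.12, adjusted p = 1.3e-07). ALDH1A3, which makes retinoic acid, rose from 20.7 and 28.6 CPM to 408 and 407 CPM (log2 change 4.03 ± 0.12, adjusted p = 3.8e-10).

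The transcription factors of corneal and limbal identity were mostly lower: of 16 tested, 1 rose, 11 fell and 4 did not pass the test, with a median log2 change of -0.55. PAX6, the master regulator of eye development, was at 563 and 595 CPM in the uninjured samples and 321 and 302 CPM at day 3 (log2 change -0.89 ± 0.08, adjusted p = 2.1e-06). TP63, which maintains basal cells of stratified epithelia, was at 274 and 251 CPM in the uninjured samples and 119 and 128 CPM at day 3 (log2 change -1.09 ± 0.08, adjusted p = 5.0e-07). OTX1 was at 52 and 63.8 CPM in the uninjured samples and 24.4 and 21.6 CPM at day 3 (log2 change -1.33 ± 0.14, adjusted p = 8.4e-06), and SMAD3, which carries TGF-beta signals to the nucleus, at 67 and 64.9 CPM in the uninjured samples and 30.4 and 27.7 CPM at day 3 (log2 change -1.18 ± 0.10, adjusted p = 1.6e-06). In PAX6, TP63, OTX1 and SMAD3 both day 3 samples lay below both uninjured ones, as in 40.6% of all genes tested. Of the 4, OTX1 also passed the test against a 2-fold change. For 9 of the 16 members tested the interval of the log2 change lay within 2-fold.

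Genes of basal and limbal progenitor cells split in direction. In this list, of 19 tested, 7 rose, 11 fell and 1 did not pass the test, with a median log2 change of -1.09. The basal keratin KRT14 rose from 1277 and 1108 CPM to 20681 and 19023 CPM (16.6-fold higher, log2 change 4.06 ± 0.10, adjusted p = 1.1e-10), and at day 1 it was still at 1321 and 1329 CPM. KRT5, its partner, rose from 6675 and 6786 CPM to 14618 and 14651 CPM (2.17-fold higher, log2 change 1.12 ± 0.07, adjusted p = 1.5e-07). KRT15, a keratin of limbal basal cells, moved the other way, from 3537 and 3251 CPM to 516 and 506 CPM (6.64-fold lower, log2 change -2.73 ± 0.09, adjusted p = 7.5e-10). GPHA2, a glycoprotein hormone subunit that marks quiescent limbal stem cells, was at 194 and 215 CPM in the uninjured samples and at 0 counts in both day 3 samples (at least 576-fold lower, adjusted p = 3.4e-10). PENK, the enkephalin precursor, went from 93.5 and 78 CPM to 0 counts (at least 239-fold lower, adjusted p = 4.5e-09). LAMB4, a laminin chain, went from 96 and 97.7 CPM to 3.68 and 3.43 CPM (27.2-fold lower, log2 change -4.75 ± 0.14, adjusted p = 3.3e-10). GPHA2 was held by few barcodes even without injury, 5.94% and 5.79% with no thinning, while KRT15 was in 68.1% and 68.1% of thinned uninjured barcodes and in 21.5% and 21.5% at day 3. None of the 2164 day 3 barcodes held a count of GPHA2 or PENK, which for each gene allows up to 0.139% of barcodes with a count. That limit covers counting error only and does not limit the share of cells that express the gene below the level of capture.

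Adhesion genes moved in both directions, most of them up. In the list of hemidesmosomes, integrins and laminins, of 22 tested, 15 rose, 4 fell and 3 did not pass the test, with a median log2 change of 0.75; with totals alone 11 rose and 6 fell, with a median of 0.33. ITGB6, a beta chain that forms a fibronectin and TGF-beta binding integrin of wounded epithelium, stood at 1.2 and 1.74 CPM in the uninjured samples and 102 and 110.3 CPM at day 3 (72.3-fold higher, log2 change 6.13 ± 0.16, adjusted p = 2.1e-10). ITGA5, the alpha chain of the fibronectin receptor, was at 0 counts without injury and at 23.7 and 18.9 CPM at day 3 (at least 76.6-fold higher, adjusted p = 2.8e-07). ITGB4, the hemidesmosomal beta chain, stood at 156 and 145 CPM in the uninjured samples and 396 and 419 CPM at day 3 (log2 change 1.43 ± 0.08, adjusted p = 4.5e-08). In all 3 both day 3 samples lay above both uninjured ones, as in 38.4% of all genes tested. COL17A1, the collagen of the hemidesmosome, stood at 391 and 382 CPM in the uninjured samples and 439 and 417 CPM at day 3 and did not pass the test (log2 change 0.15 ± 0.08, adjusted p = 0.14, and -0.27 with totals alone). The laminin chain LAMB1 fell from 239 and 247 CPM to 71.4 and 86.1 CPM (3.09-fold lower, log2 change -1.63 ± 0.10, adjusted p = 1.6e-07). DST, dystonin, which ties keratin filaments to the hemidesmosome, fell from 689 and 621 CPM to 385 and 387 CPM (log2 change -0.76 ± 0.08, adjusted p = 9.7e-06). The other members that fell were LAMA5 and ITGB5, by 0.45 and 0.21 on the log2 scale.

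Matrix and mesenchymal genes were mostly higher. The list holds 26 genes, and of 22 tested, 19 rose, 1 fell and 2 did not pass the test, with a median log2 change of 2.38. Members at or near 0 counts without injury, among them FN1, TNC, COL4A1, COL4A2 and COL8A1, could only rise, so the count is a description. FN1, fibronectin, had 2 counts in 1 uninjured sample and none in the other, and stood at 552 and 472 CPM at day 3, a ratio of 2758 with a 95% counting interval of 763 to 22785 (adjusted p = 5.0e-11). At day 1 FN1 was still at 0.22 and 0.555 CPM. VIM, the intermediate filament protein vimentin of mesenchymal and migrating cells, stood at 7.37 and 7.33 CPM in the uninjured samples and 651 and 601 CPM at day 3 (85.2-fold higher, log2 change 6.41 ± 0.19, adjusted p = 3.4e-10). TNC, tenascin C, was at 0 counts without injury and at 29 and 29.2 CPM at day 3 (at least 104-fold higher, adjusted p = 3.4e-07). COL4A2, a basement membrane collagen, was likewise at 0 counts and reached 24.4 and 17.2 CPM (at least 74.9-fold higher, adjusted p = 5.8e-06). FN1 was in 14% and 14.3% of thinned day 3 barcodes and VIM in 30.0% and 29.5%. TGFBI was the member that fell. Actin and contractile genes rose alongside, 20 of 22 tested with none lower (median 1.25). TMSB10, an actin-sequestering thymosin, stood at 569 and 586 CPM in the uninjured samples and 4814 and 5384 CPM at day 3 (log2 change 3.14 ± 0.13, adjusted p = 6.5e-09). CNN3, calponin 3, stood at 4.98 and 4.71 CPM in the uninjured samples and 43.5 and 51.2 CPM at day 3 (log2 change 3.28 ± 0.16, adjusted p = 2.3e-08), and MSN, moesin, at 12.8 and 13.3 CPM in the uninjured samples and 85.2 and 90.5 CPM at day 3 (log2 change 2.75 ± 0.14, adjusted p = 2.7e-08).

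Markers of the stromal keratocytes and fibroblasts rose in part. Of 14 markers 8 were tested, and 5 rose and 1 fell (median log2 change 2.60); their share of counts was 0.0705% and 0.0538% without injury and 0.0748% and 0.0732% at day 3. LUM, the keratan sulfate proteoglycan lumican, was at 0 counts and reached 29.2 and 29.7 CPM (at least 106-fold higher, adjusted p = 4.9e-08). COL1A1 stood at 2.79 and 1.22 CPM in the uninjured samples and 57.1 and 43.9 CPM at day 3 (log2 change 4.68 ± 0.25, adjusted p = 4.2e-08). With no thinning, KERA, the keratocyte proteoglycan keratocan, was in 0% of uninjured barcodes and in 0.456% and 0.749% at day 3, LUM in 9.49% and 8.8% and COL3A1 in 0.73% and 0.655%. DCN, which gave most of the counts of these markers, was in 59.7% and 59% of uninjured barcodes and 70% and 70.9% at day 3. It stood at 640 and 497 per 1000000 counts uninjured and 606 and 610 at day 3. DCN alone thus gave 1 marker in most barcodes of both groups. FBLN1 went down, from 7.73% and 7.13% of barcodes to 1.19% and 1.59%. Barcodes with counts of at least 3 of the markers numbered 7 and 3 without injury and 67 and 51 at day 3 (6.11% and 4.78%). Each of the latter also held KRT5 and KRT14, at 10409 and 9858 and 22734 and 18528 counts per 1000000 of those barcodes. They held FN1 at 4548 and 4428 per 1000000, against 271 and 270.4 in the barcodes with fewer than 3 markers of any other cell type. Without all barcodes holding 3 or more markers of another cell type, a selection that itself removes matrix counts and was made after seeing the data, the fitted log2 change of VIM was 7.20, that of COL1A1 3.80 and the matrix list median 1.93. Then 3538 genes were higher and 3236 lower. The part of stromal cells in the matrix result was not tested.

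Markers of other cell types gave few counts. Only 5 of 17 leukocyte markers could be tested; 3 rose, 1 fell, and their summed share of counts was 0.0158% and 0.0198% without injury and 0.0184% and 0.0153% at day 3. LYZ, which gave most of these counts, was in 19.1% and 23% of uninjured and 27% and 23.6% of day 3 barcodes, with no thinning. CD74 went from 4.09% and 7.48% of barcodes to 0.547% and 0.749%. PTPRC, the common leukocyte antigen, was in 0% and 0.212% of uninjured and 0.0912% and 0.843% of day 3 barcodes, and CD3D in none of either group. Of 8 melanocyte markers 5 were tested and 2 fell, with a median log2 change of 0.04 that was below 0 in 6 alternatives, among them each day 3 sample left out. KIT, a receptor also made by other cells, was one of them, at 53.2 and 65.1 CPM in the uninjured samples and 18.7 and 14.5 CPM at day 3 (log2 change -1.83 ± 0.15, adjusted p = 1.5e-06). Of 10 vascular markers 2 were tested and 1 rose (EGFL7, log2 change 1.21 ± 0.14, adjusted p = 2.5e-05), and of 6 corneal endothelial markers 2 were tested, with SLC4A11 called higher, but not with DESeq2 (list median 0.23, and -0.20 with totals alone). None of 7 red blood cell transcripts was tested. Of the 10 epithelial markers 3 rose and 5 fell (median -0.34, and 0.04 on thinned counts).

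Genes of the cornified envelope and of superficial keratinocytes, which the cornea makes little of, rose in 19 of 20 tested (29 in the list), with none lower and a median log2 change of 3.15. SPINK5, a serine protease inhibitor of the upper epidermis that is not in the list, was among the 10 highest genes by the naming rule, at 4.38 and 11.9 CPM uninjured, 0 and 0 CPM at day 1 and 1054 and 1177 CPM at day 3 (137-fold higher, log2 change 7.06 ± 0.23, adjusted p = 2.6e-09). RHCG, an ammonium transporter of squamous epithelia, was at 0 counts without injury and at 90.0 and 79.4 CPM at day 3 (at least 304-fold higher, adjusted p = 4.7e-09). DMKN, dermokine, was at 0 counts and reached 35.2 and 36.5 CPM (at least 129-fold higher, adjusted p = 2.4e-08), and CRCT1, a gene of the epidermal differentiation complex, 11.5 and 19.4 CPM (at least 54.9-fold higher, adjusted p = 5.4e-06). CSTB, a cysteine protease inhibitor, stood at 682 and 729 CPM in the uninjured samples and 6109 and 5836 CPM at day 3 (log2 change 3.08 ± 0.09, adjusted p = 3.3e-10). LY6D, a surface protein of squamous cells, stood at 26.7 and 31.2 CPM in the uninjured samples and 1740.2 and 1714 CPM at day 3 (59.6-fold higher, log2 change 5.89 ± 0.12, adjusted p = 2.2e-11). Detection followed the order of these levels. CSTB was in 83.3% and 82.1% of thinned day 3 barcodes, LY6D in 44.9% and 44.8%, RHCG in 4.75% and 4.45% and DMKN in 2.15% and 2.12%. At the low levels of RHCG and DMKN these shares do not by themselves show that few cells held them.

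Of 18 genes of the neighbouring conjunctiva and its goblet cells 8 were tested, and 7 rose and 1 fell (median 2.62). With totals alone 5 rose and 1 fell, and the test against a 2-fold change called 4 higher and 1 lower. The keratin KRT4 rose little (log2 change 0.38 ± 0.12, adjusted p = 0.022) and changed sign with totals alone. AGR2 rose by 0.28 on the log2 scale, and for both genes the interval lay within 2-fold. KRT7, a simple epithelial keratin of the conjunctiva, stood at 5.38 and 6.11 CPM uninjured, 53.3 and 54.9 CPM at day 1 and 418 and 398 CPM at day 3 (71-fold higher, log2 change 6.14 ± 0.11, adjusted p = 9.2e-12). S100P stood at 7.97 and 3.49 CPM in the uninjured samples and 190.0 and 209 CPM at day 3 (log2 change 5.15 ± 0.29, adjusted p = 6.5e-08). PIGR, which carries IgA across epithelia, was at 0 counts without injury and at 8.52 and 2.7 CPM at day 3 (at least 20.4-fold higher, adjusted p = 0.0031). AQP3, a water channel shared with the cornea, was the member that fell. The goblet cell mucin MUC5AC was not among the genes tested. Membrane mucins and their glycosyltransferases rose in 6 of 8 tested, with none lower (median 1.06). MUC1 stood at 8.37 and 8.2 CPM in the uninjured samples and 164 and 151 CPM at day 3 (19-fold higher, log2 change 4.24 ± 0.11, adjusted p = 2.0e-10), and GALNT3, which starts O-glycans, at 93.1 and 93.7 CPM in the uninjured samples and 210.0 and 209 CPM at day 3 (log2 change 1.17 ± 0.07, adjusted p = 1.6e-07).

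Proteases and their inhibitors rose in 18 of 22 tested and fell in 3, with a median log2 change of 2.31. MMP13, a collagenase, was at 0 counts in both uninjured and both day 1 samples and at 17.3 and 21.8 CPM at day 3 (at least 69.8-fold higher, adjusted p = 1.3e-06). MMP9, a gelatinase of healing corneas, was at 0 counts without injury, at 5.73 and 4.16 CPM at day 1 and at 23.5 and 21.8 CPM at day 3 (at least 81.3-fold higher, adjusted p = 1.2e-07). TIMP2, an inhibitor of both, reached 4.38 and 6.38 CPM from 0 counts (at least 19.2-fold higher, adjusted p = 1.6e-04). From day 1 to day 3 the list moved mostly down, with 16 members lower and 5 higher, in a comparison where 59.3% of all genes were called (30.5% higher and 28.8% lower).

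Inflammatory genes and NF-kappaB targets were mostly higher, with 17 of 22 tested higher and 3 lower (median 1.44). IL1A, an alarm cytokine held in epithelial cells, was at 0 counts without injury, at 20.3 and 27.7 CPM at day 1 and at 8.29 and 10.3 CPM at day 3 (at least 33.2-fold higher, adjusted p = 7.8e-06). The monocyte chemokine CCL2 went from 0 counts to 4.38 and 7.11 CPM (at least 20.4-fold higher, adjusted p = 3.2e-04). IL1B reached 4.14 and 15.4 CPM, with the 2 samples far apart, and its call was lost with DESeq2 (at least 34.5-fold higher, adjusted p = 0.0018 in edgeR). Between day 1 and day 3, 14 members fell and 4 rose. Without the barcodes holding markers of other cell types the list median was 1.56.

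Interferon response genes rose in 20 of 24 tested and fell in 2, with a median log2 change of 2.03. OAS2, a sensor enzyme for double-stranded RNA, was at 0 counts without injury and at 22.3 and 18.6 CPM at day 3 (at least 73.6-fold higher, adjusted p = 5.6e-07). MX2, an antiviral GTPase, went from 0 counts to 12.2 and 6.87 CPM (at least 34.5-fold higher, adjusted p = 1.8e-05), and IFI44L to 4.61 and 3.92 CPM (at least 15.3-fold higher, adjusted p = 0.0011). DDX60, a helicase of the same response outside the list, stood at 3.99 and 5.41 CPM uninjured, 5.95 and 6.94 CPM at day 1 and 177 and 139 CPM at day 3 (33.6-fold higher, log2 change 5.05 ± 0.17, adjusted p = 1.1e-09). Unlike the inflammatory list, this one was higher at day 3 than at day 1 in 16 members and lower in 2; the difference between the lists was not tested. The factors IRF1 and IRF7 were the members that fell (log2 change -0.98 ± 0.09 and -0.98 ± 0.18).

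Part of the cell division genes rose, from low levels. Of 24 mitosis genes tested 15 rose and none fell (median 1.15), while DESeq2 called 6 of them and totals alone 10. Summed over the list, the uninjured samples stood at 88.5 and 204 CPM, day 1 at 46.9 and 40.8 and day 3 at 307 and 377. The uninjured level that both days are compared with thus differed widely between its 2 samples. CCNB1, the mitotic cyclin B1, stood at 3.59 and 4.88 CPM uninjured, 1.1 and 1.94 CPM at day 1 and 19.6 and 25.5 CPM at day 3 (5.32-fold higher, log2 change 2.39 ± 0.23, adjusted p = 5.1e-06). KIF23, a kinesin of cytokinesis, stood at 1.39 and 5.41 CPM in the uninjured samples and 14 and 14.5 CPM at day 3 (log2 change 2.01 ± 0.36, adjusted p = 5.9e-04). MKI67, which marks cycling cells, stood at 3.39 and 12.4 CPM uninjured, 3.75 and 0 CPM at day 1 and 29.5 and 24.5 CPM at day 3 (log2 change 1.73 ± 0.41, adjusted p = 0.004), with uninjured samples that differed widely from each other and a call lost with DESeq2. Day 1 lay below: 24 of the mitosis genes were higher at day 3 than at day 1. At day 1 16 of them were lower than in uninjured samples, in a comparison that called 62.2% of all genes (30.5% higher and 31.7% lower). Of the DNA replication genes 13 of 25 tested rose and 2 fell (median 0.55), 8 rose and 1 fell with DESeq2, and 11 rose and 6 fell with totals alone (median 0.13). Those that fell were PCNA, the sliding clamp of DNA polymerases, and SLBP, which binds histone messages, by 0.29 and 0.50 on the log2 scale. TYMS, which makes thymidylate, stood at 9.37 and 11.2 CPM in the uninjured samples and 93.3 and 88.3 CPM at day 3 (8.84-fold higher, log2 change 3.13 ± 0.15, adjusted p = 1.7e-08). RRM2, a ribonucleotide reductase subunit, stood at 3.39 and 2.97 CPM in the uninjured samples and 25.1 and 32.6 CPM at day 3 (log2 change 3.17 ± 0.24, adjusted p = 6.1e-07), and UHRF1, which maintains DNA methylation, at 0 and 1.92 CPM in the uninjured samples and 12.9 and 13.7 CPM at day 3 (log2 change 3.67 ± 0.50, adjusted p = 7.2e-05). Every risen member of both lists was held by under 10% of thinned day 3 barcodes, as were 73.3% of all higher genes (2599 of 3545). CCNB1 was in 1.39% and 1.73% and TYMS in 6.89% and 6.85%. Of those 2599 genes, 2565 would have stayed under 10% even if spread evenly, so such shares do not tell few cells from a low level.

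Among signalling pathways, 10 genes of the EGF family were tested, and 6 rose, all of them ligands, while 1 ligand and 3 receptors fell (median 0.53). The ligand AREG, amphiregulin, stood at 358 and 388 CPM in the uninjured samples and 495 and 488 CPM at day 3 (log2 change 0.40 ± 0.08, adjusted p = 0.0013, but -0.02 with totals alone), and HBEGF stood at 78.9 and 85.5 CPM in the uninjured samples and 136 and 125 CPM at day 3 (log2 change 0.66 ± 0.10, adjusted p = 1.2e-04). EGF itself was at 14.3 and 12.9 CPM without injury and at 0 counts at day 3 (at least 38.1-fold lower, adjusted p = 1.3e-06). TGFA, another ligand of the same receptor, stood at 2.19 and 0.872 CPM in the uninjured samples and 26.5 and 22.6 CPM at day 3 (log2 change 4.02 ± 0.30, adjusted p = 6.3e-07), and EREG, epiregulin, at 0 and 1.05 CPM in the uninjured samples and 10.6 and 13.7 CPM at day 3 (log2 change 4.38 ± 0.51, adjusted p = 2.2e-05). The receptors EGFR, ERBB2 and ERBB3 fell by 0.61, 0.46 and 0.37 on the log2 scale. Of the 19 TGF-beta and BMP genes tested, 8 rose and 8 fell (median 0.03, which was below 0 with totals alone, -0.39, and without uninjured replicate 2, -0.07). The ligand TGFB2 stood at 65.8 and 58.3 CPM in the uninjured samples and 12 and 11.8 CPM at day 3 (log2 change -2.38 ± 0.13, adjusted p = 4.6e-08), and TGFB1 at 20.9 and 21.3 CPM in the uninjured samples and 62.9 and 66.5 CPM at day 3 (log2 change 1.61 ± 0.13, adjusted p = 1.1e-06). TGFB3 and INHBA, the activin A subunit, were at 0 counts without injury and reached 4.14 and 3.43 CPM (at least 13.6-fold higher, adjusted p = 0.0029) and 4.14 and 3.19 CPM (at least 13.2-fold higher, adjusted p = 0.0026).

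Wnt, Notch and immediate early genes were lower on balance. Of 17 Wnt genes tested 9 fell and 3 rose (median -0.84). The receptor FZD10 was at 6.97 and 6.45 CPM without injury and at 0 counts at day 3 (at least 18.8-fold lower, adjusted p = 2.1e-04), and AXIN2, a direct target of the pathway, was at 10.6 and 10.3 CPM in the uninjured samples and 1.84 and 1.72 CPM at day 3 (log2 change -2.53 ± 0.31, adjusted p = 3.3e-05). SFRP1, a secreted Wnt antagonist, rose from 2.39 and 1.74 CPM to 56.9 and 50.3 CPM (25.9-fold higher, log2 change 4.69 ± 0.19, adjusted p = 4.5e-09). Of 14 Notch genes tested 7 fell and 3 rose (median -0.33); the coactivator MAML2 was at 9.96 and 10.8 CPM in the uninjured samples and 3.45 and 3.92 CPM at day 3 (log2 change -1.49 ± 0.26, adjusted p = 5.7e-04). Of 22 immediate early genes tested 16 fell and 4 rose (median -0.81). FOS, a subunit of the AP-1 factor, stood at 4227 and 4305 CPM in the uninjured samples and 1378 and 1402 CPM at day 3 (log2 change -1.62 ± 0.08, adjusted p = 1.6e-08), and the nuclear receptor NR4A1 at 962 and 987 CPM in the uninjured samples and 312 and 294 CPM at day 3 (log2 change -1.68 ± 0.08, adjusted p = 1.3e-08). CCN1, a matrix-associated signalling protein, rose from 13.9 and 11.9 CPM to 59.9 and 53.2 CPM (log2 change 2.14 ± 0.14, adjusted p = 1.8e-07). FOS was in 95.5% and 96.2% of thinned uninjured barcodes and in 64.3% and 64.6% at day 3.

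Retinoid genes held some of the largest changes in both directions. Of 16 tested, 7 rose and 6 fell (median 0.17, which was below 0 with totals alone, -0.25, and without uninjured replicate 2, -0.04). DHRS9, a retinol dehydrogenase, stood at 1.99 and 1.4 CPM uninjured, 95 and 84.6 CPM at day 1 and 168 and 153 CPM at day 3 (94.6-fold higher, log2 change 6.56 ± 0.16, adjusted p = 1.3e-10). CYP26A1, which degrades retinoic acid, stood at 460.3 and 517 CPM uninjured, 50.2 and 78 CPM at day 1 and 14.7 and 11.5 CPM at day 3 (37.2-fold lower, log2 change -5.21 ± 0.19, adjusted p = 1.7e-09). CYP26A1 was in 21.7% and 24.2% of thinned uninjured barcodes and in 1.11% and 0.896% at day 3.

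In metabolism, glycolytic genes rose in 10 of 13 tested with 1 lower (median 0.58); with totals alone 6 rose and 2 fell. PGAM1, a glycolytic mutase, stood at 250.1 and 249.8 CPM in the uninjured samples and 718 and 714 CPM at day 3 (log2 change 1.52 ± 0.08, adjusted p = 2.2e-08), and ALDOC, an aldolase, at 1.99 and 2.62 CPM in the uninjured samples and 25.6 and 26 CPM at day 3 (log2 change 3.46 ± 0.22, adjusted p = 1.7e-07). SLC16A3, a lactate exporter, stood at 18.1 and 17.1 CPM in the uninjured samples and 55.5 and 51.2 CPM at day 3 (log2 change 1.60 ± 0.12, adjusted p = 8.5e-07). None of the 13 tested genes of gluconeogenesis and FOXO control rose and 7 fell (median -0.38, 11 lower with totals alone). PCK1, the rate-limiting enzyme of gluconeogenesis, was at 248 and 296 CPM without injury and at 0 counts at day 3 (at least 768-fold lower, adjusted p = 5.1e-10). The arrestin-family protein TXNIP, which restrains glucose uptake, stood at 695 and 616 CPM uninjured, 17.2 and 16.9 CPM at day 1 and 95.1 and 86.3 CPM at day 3 (log2 change -2.85 ± 0.09, adjusted p = 7.8e-10), and the repressor BCL6 at 67.5 and 60.7 CPM in the uninjured samples and 14.3 and 14.7 CPM at day 3 (log2 change -2.14 ± 0.13, adjusted p = 9.4e-08). Of 25 cholesterol and lipid genes tested 19 rose and 2 fell (median 0.97). LSS, which closes the sterol ring, stood at 9.56 and 9.59 CPM uninjured, 6.61 and 4.99 CPM at day 1 and 35.5 and 42.7 CPM at day 3 (log2 change 2.02 ± 0.16, adjusted p = 7.9e-07), and the desaturase FADS2 at 1.39 and 1.92 CPM in the uninjured samples and 24.2 and 20.8 CPM at day 3 (log2 change 3.73 ± 0.28, adjusted p = 5.9e-07). Nuclear genes of oxidative phosphorylation rose in 8 of 11 tested with none lower (median 0.70); 29 genes are in that list. NDUFB2, of respiratory complex I, stood at 159 and 146 CPM in the uninjured samples and 345 and 406 CPM at day 3 (log2 change 1.30 ± 0.16, adjusted p = 2.9e-05). Of the 9 mitochondrially encoded genes tested none rose and 6 fell (median -0.49), with MT-ATP6 at 9662 and 10037 CPM in the uninjured samples and 5918 and 5520.1 CPM at day 3 (log2 change -0.78 ± 0.07, adjusted p = 4.0e-06).

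Genes of ribosomes, proteasomes and heat shock mostly rose, with list medians of less than 2-fold. Of 36 ribosomal protein genes 19 were tested and 19 rose (median 0.83; 13 rose with totals alone), and each was in at least 50% of thinned day 3 barcodes. RPLP0, a stalk protein of the large subunit, stood at 2162 and 2128 CPM in the uninjured samples and 5266 and 5123 CPM at day 3 (log2 change 1.28 ± 0.07, adjusted p = 6.7e-08), and RPSA at 1254 and 1203 CPM in the uninjured samples and 2766 and 2668 CPM at day 3 (log2 change 1.15 ± 0.08, adjusted p = 2.2e-07). Proteasome subunits rose in 22 of 23 tested with none lower (median 0.81). PSMB5, a catalytic subunit, stood at 146 and 138 CPM in the uninjured samples and 315 and 308 CPM at day 3 (log2 change 1.13 ± 0.08, adjusted p = 2.7e-07). Of 8 heat shock genes tested 6 rose and none fell (median 0.82), among them HSPH1, a co-chaperone, at 52 and 43.1 CPM in the uninjured samples and 248 and 235 CPM at day 3 (log2 change 2.35 ± 0.09, adjusted p = 3.9e-09). Splicing factors were split, 6 higher and 10 lower of 28 tested (median -0.10); totals alone called 0 higher and 23 lower, and DESeq2 2 and 8. SRSF7 stood at 379 and 381 CPM in the uninjured samples and 186 and 175 CPM at day 3 (log2 change -1.08 ± 0.08, adjusted p = 5.2e-07).

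Stress responses were mixed. Of 16 NRF2 targets tested 7 rose and 6 fell (median 0.06, and -0.36 with totals alone, which called 3 higher and 8 lower). HMOX1, haem oxygenase, stood at 6.38 and 6.98 CPM uninjured, 496 and 456 CPM at day 1 and 61.7 and 55.4 CPM at day 3 (8.77-fold higher, log2 change 3.13 ± 0.14, adjusted p = 1.0e-08). The metallothionein MT1X stood at 1471 and 1357 CPM uninjured, 561 and 326 CPM at day 1 and 231 and 297 CPM at day 3 (5.35-fold lower, log2 change -2.42 ± 0.20, adjusted p = 1.6e-06), with the caution that metallothionein genes are near copies of each other. Of 19 endoplasmic reticulum and integrated stress genes tested 9 rose and 4 fell (median 0.28, and -0.14 with totals alone, which called 5 and 8). TRIB3, a pseudokinase induced by ATF4, was at 0 counts without injury and at 9.21 and 12 CPM at day 3 (at least 37.9-fold higher, adjusted p = 5.9e-06). Of 19 p53 targets tested 10 rose and 5 fell (median 0.41, and -0.01 with totals alone, which called 6 and 7). GDF15, a stress cytokine, was at 0 counts and reached 8.06 and 9.07 CPM (at least 30.6-fold higher, adjusted p = 3.5e-06), and GADD45B stood at 946 and 949 CPM in the uninjured samples and 349 and 367 CPM at day 3 (log2 change -1.40 ± 0.08, adjusted p = 5.3e-08). Of 21 desmosome and tight junction genes tested 12 rose and 3 fell (median 0.30, and -0.12 with totals alone, which called 6 and 8). The desmosomal cadherin DSG3 stood at 208 and 212 CPM in the uninjured samples and 644 and 672 CPM at day 3 (log2 change 1.65 ± 0.08, adjusted p = 1.5e-08). DSG1, its superficial relative, stood at 707 and 731 CPM in the uninjured samples and 718 and 710.4 CPM at day 3 (log2 change -0.01 ± 0.07, adjusted p = 0.92), with a 95% interval of -0.17 to 0.15.

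Single-cell detection was then used to tell called genes held by most cells from those held by few. The class gives how widely a gene was detected in its higher group, not in how many cells its level changed. RPL3, an abundant ribosomal gene that rose 1.25-fold, is for instance in the class of most cells. A called gene counted as seen in most cells when at least 50% of thinned barcodes held it in both samples of the higher group, and in few when under 10% did. Of the 3545 higher genes 146 were in most cells, 800 between and 2599 in few; of the 3247 lower genes 41 were in most, 376 between and 2830 in few. KRT6A went from 7.35% and 7.11% of thinned uninjured barcodes to 89.7% and 89.4% at day 3. With no thinning its shares were 15.1% and 16.1% and 96.2% and 96.2%. TMSB10 went from 45.3% and 45.4% to 95.6% and 96.6%, and KRT14 from 38.1% and 36% to 81.4% and 82.6%. Of the genes that fell, CSRP2, a LIM domain protein, went from 75.9% and 76.1% to 29.2% and 30.3%, and KRT15 from 68.1% and 68.1% to 21.5% and 21.5%. Barcodes with under 1000 counts were left out, 77 and 69 uninjured and 12 and 5 at day 3. No cell type that should lack these genes was large enough to give a background, since barcodes with 3 or more leukocyte markers numbered 0 and 5 uninjured and 3 and 6 at day 3; the part of free RNA in these shares was not measured.

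**Figure D3:**
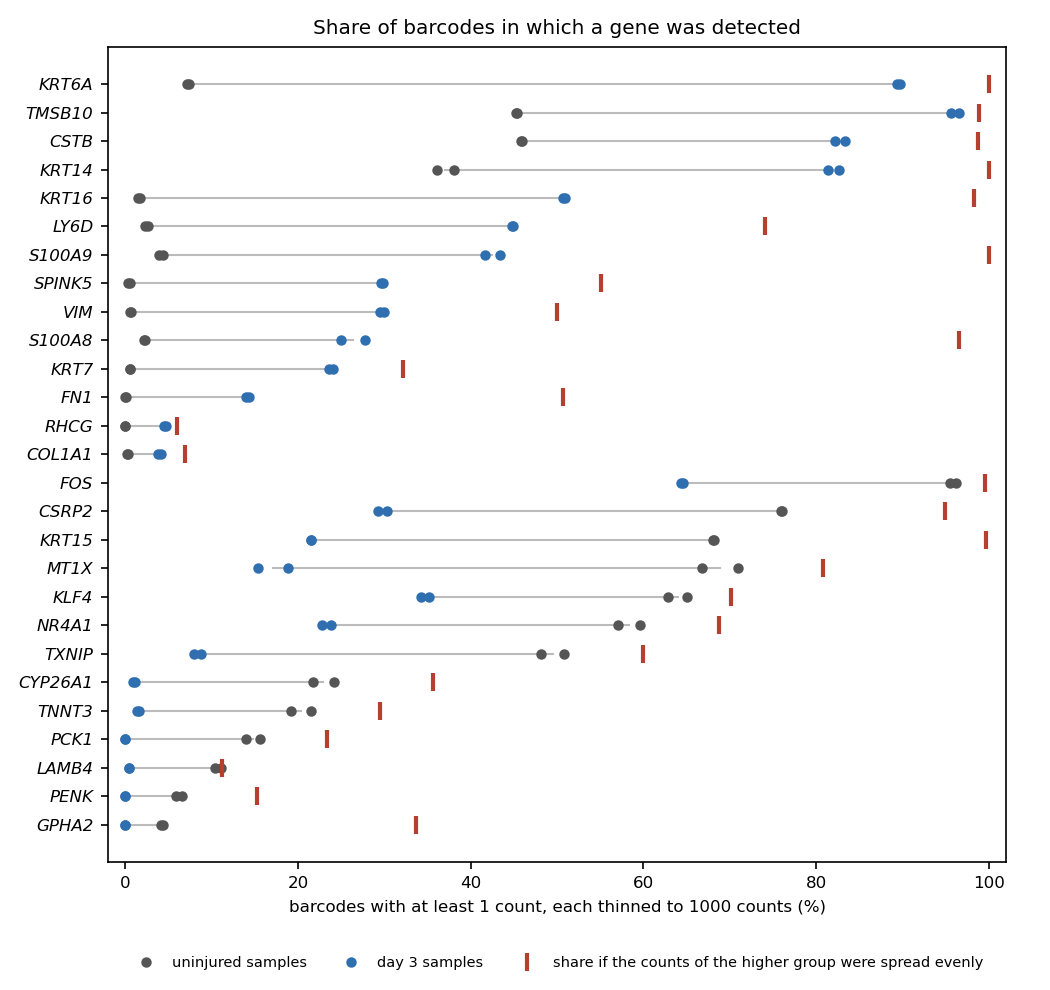
Points give the percent of barcodes, thinned to 1000 counts, that held each gene in the uninjured and day 3 samples, and a red tick marks the share that an even spread of the counts in the higher group would give. KRT6A reaches 89.7% and 89.4% at day 3, near its tick, and S100A8 with 25% and 27.8% lies far below its own.

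A low share of barcodes need not mean few cells, because a weakly expressed gene spread evenly over cells is also seen in few. The share an even spread would give was therefore computed from each gene's mean per 1000 counts. Of the genes in few cells, 2565 of the 2599 higher and 2824 of the 2830 lower would have stayed under 10% in both samples even when spread evenly. Of the genes whose even share was at least 50%, 146 of 169 higher and 41 of 51 lower were in most cells. Over genes with an even share of at least 10%, the median ratio of observed to even share was 0.979 for the 915 higher genes and 0.973 for the 388 lower genes. The ratio was under 0.5 for 15 higher and 4 lower genes. Among the higher ones were S100A8 at 0.273, the water channel AQP5 at 0.274, FN1 at 0.28, S100P at 0.315, KRT24 at 0.363 and S100A9 at 0.425. The 4 lower genes were GPHA2 at 0.128, PENK at 0.406, KRT3 at 0.455 and KRT12 at 0.497. S100A8 was thus seen in 25% and 27.8% of day 3 barcodes where an even spread would give 95.9% and 97.1%. For GPHA2 the uninjured shares were 4.39% and 4.19% where an even spread would give 29.3% and 38%.

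**Figure D4:**
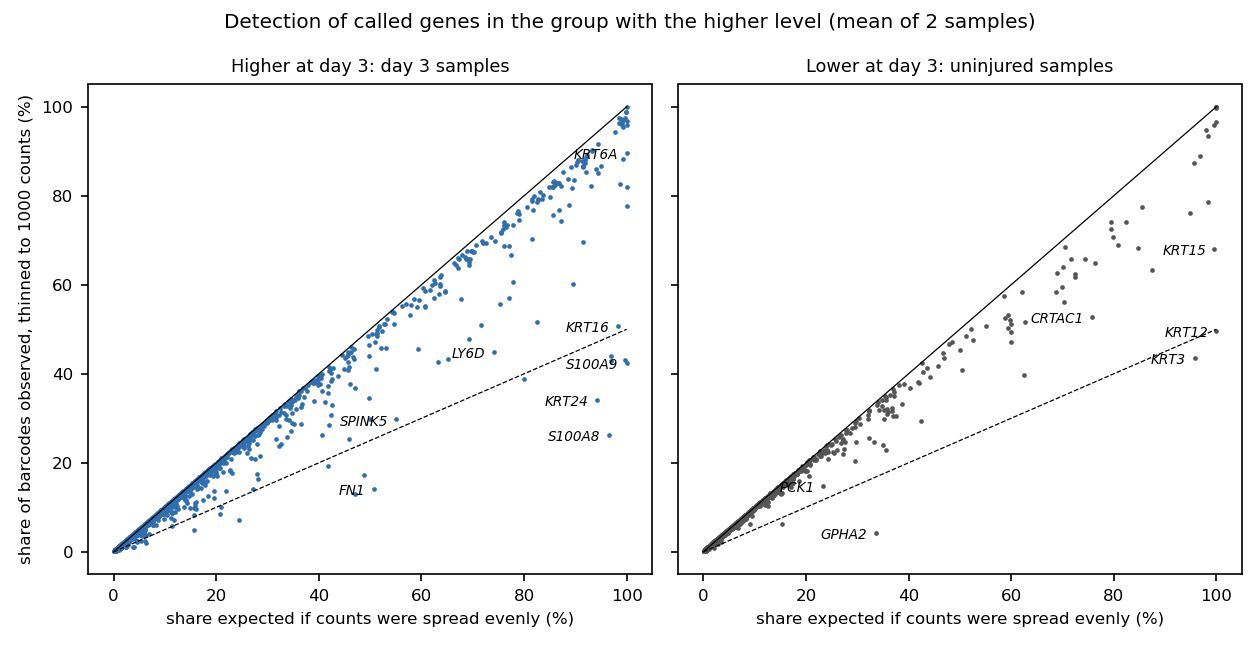
Each point is a called gene, with the share of thinned barcodes expected from an even spread on the x axis and the observed share on the y axis, for genes higher at day 3 (left, day 3 samples) and lower at day 3 (right, uninjured samples); the solid line marks equality and the dashed line a ratio of 0.5. Most points follow the solid line, and 15 genes on the left and 4 on the right with an even share of at least 10% fall under the dashed line.

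What else a barcode held was then read for FN1, 1 of the 15 unevenly held higher genes, and for VIM, RHCG and KRT78, which are outside the 15. Day 3 barcodes were split by whether they held at least 2 counts of a gene, and other genes were read in counts per 1000000 of each part, as a description with no test. FN1 was held in this way by 162 and 167 barcodes (14.8% and 15.6%), whose median count was 3175 and 3074 against 4652 and 4326 in the others. In them KRT12 was at 1878 and 1789 against 10171 and 10376 per 1000000, S100A9 at 2883 and 3145 against 12429 and 11907 and VIM at 1592 and 1163 against 449 and 449. The FN1 barcodes of both samples were thus lower in the corneal keratin and the alarmin and higher in VIM, while KRT14 was near the others at 16748 and 15543 against 18552 and 17112. VIM was held by 382 and 358 barcodes, in which S100A9 was at 1174 and 849 against 15993 and 14889.6 and ALDH3A1 at 12588 and 13069 against 5291 and 4565. RHCG was held by 79 and 71 barcodes (median count 5842 and 5618 against 4304 and 4028). In the RHCG barcodes S100A9 was at 42999 and 41044 against 8021 and 7962 and KRT12 at 531 and 129.9 against 10158 and 10221. KRT78, a keratin of superficial squamous cells, was held by 81 and 76 barcodes, with RHCG at 75.1 and 109 against 80.4 and 66.3 and KRT12 at 5670.1 and 5318 against 9639 and 9796. S100A9 was thus higher in the RHCG barcodes and lower in the FN1 and VIM barcodes than in the others, in both samples. KRT6A was high in all parts: 16757 and 14947 against 12733 and 12468 per 1000000 for the RHCG split, and 6309 and 6091 against 13978 and 13588 for the FN1 split.

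To ask what had returned to the uninjured level, the 10 genes with the largest change at day 1 whose day 3 interval lay within 2-fold of uninjured were taken. The rule fixed their day 1 change and their nearness at day 3, so these values are a description. TXNRD1, the thioredoxin reductase, stood at 28.5 and 26.5 CPM uninjured, 199 and 210.3 CPM at day 1 and 40.5 and 41.7 CPM at day 3. FOSL1, an AP-1 subunit, stood at 28.7 and 28.1 CPM uninjured, 172 and 181 CPM at day 1 and 47.4 and 46.8 CPM at day 3. LGR4, a receptor that enhances Wnt signals, dipped and came back, at 199.7 and 206 CPM uninjured, 31.1 and 26.1 CPM at day 1 and 127 and 134 CPM at day 3. CCDC34 dipped more deeply, at 50.6 and 64.4 CPM uninjured, 7.27 and 5.27 CPM at day 1 and 65.2 and 74.5 CPM at day 3, and FABP3, a fatty acid carrier, peaked at day 1, at 13.2 and 13.6 CPM uninjured, 97.2 and 88 CPM at day 1 and 9.9 and 11.3 CPM at day 3. The cytokine coreceptor IL6ST stood at 61.8 and 52.2 CPM uninjured, 354 and 335 CPM at day 1 and 76.7 and 81.7 CPM at day 3, and the homeobox factor MEIS1 at 139 and 133 CPM uninjured, 23.8 and 24.4 CPM at day 1 and 96.5 and 106 CPM at day 3. TNFSF10, the death ligand TRAIL, stood at 252 and 236 CPM uninjured, 33.9 and 42.5 CPM at day 1 and 204 and 185 CPM at day 3. B4GALT5 and TNIP2 stood at 286 and 274 and 177 and 204 CPM at day 1 and at 77.1 and 76.8 and 46.7 and 49.5 CPM at day 3, with 50.4 and 56.3 and 37.1 and 32.3 CPM uninjured. Being within 2-fold was not the same as being equal: the test called 8 of the 10 different from uninjured at day 3, such as LGR4 (log2 change -0.64 ± 0.08, adjusted p = 3.1e-05) and TXNRD1 (log2 change 0.58 ± 0.10, adjusted p = 5.7e-04), and not CCDC34 (adjusted p = 0.078) or FABP3 (adjusted p = 0.12). For TNFSF10 the call (adjusted p = 0.009) was lost without day 3 replicate 2 (0.092) and without uninjured replicate 1 (0.085), and for TNIP2 (0.0051) without uninjured replicate 2 (0.061).

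Genes that had not returned followed several courses. KRT6A, KRT16, S100A9, KRT7 and ITGB6 were above uninjured at day 1 and higher again at day 3; for ITGB6 the levels were 1.2 and 1.74 CPM uninjured, 48.5 and 45.2 CPM at day 1 and 102 and 110.3 CPM at day 3. KRT14 and FN1 stood near the uninjured level at day 1 and above it at day 3; the log2 change of KRT14 was 0.15 ± 0.09 at day 1 and 4.06 ± 0.10 at day 3. TNNT3, a troponin, was also close to uninjured at day 1 and low at day 3, at 337 and 405 CPM uninjured, 470.1 and 470.0 CPM at day 1 and 19.8 and 23.3 CPM at day 3 (17.2-fold lower, log2 change -4.11 ± 0.13, adjusted p = 5.1e-10). CYP26A1, LAMB4 and HLF, a PAR-family transcription factor, fell by day 1 and further by day 3; HLF stood at 220.2 and 225 CPM uninjured, 44.7 and 40.8 CPM at day 1 and 19.6 and 25.5 CPM at day 3 (log2 change -3.31 ± 0.11, adjusted p = 7.7e-10). EPAS1, the hypoxia factor HIF-2 alpha, stood at 605 and 589 CPM uninjured, 199.7 and 174 CPM at day 1 and 121 and 123 CPM at day 3 (log2 change -2.29 ± 0.09, adjusted p = 2.6e-09), and went from 50.5% and 50.2% of thinned barcodes to 11.3% and 11.3%. TXNIP and KRT15 had moved part of the way back from day 1, by log2 changes of 2.41 ± 0.13 and 0.79 ± 0.09 between day 1 and day 3, and remained 7.23-fold and 6.64-fold below uninjured. HMOX1 had come down since day 1 (log2 change -3.02 ± 0.09 from day 1 to day 3) and remained 8.77-fold above uninjured.

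**Figure D5:**
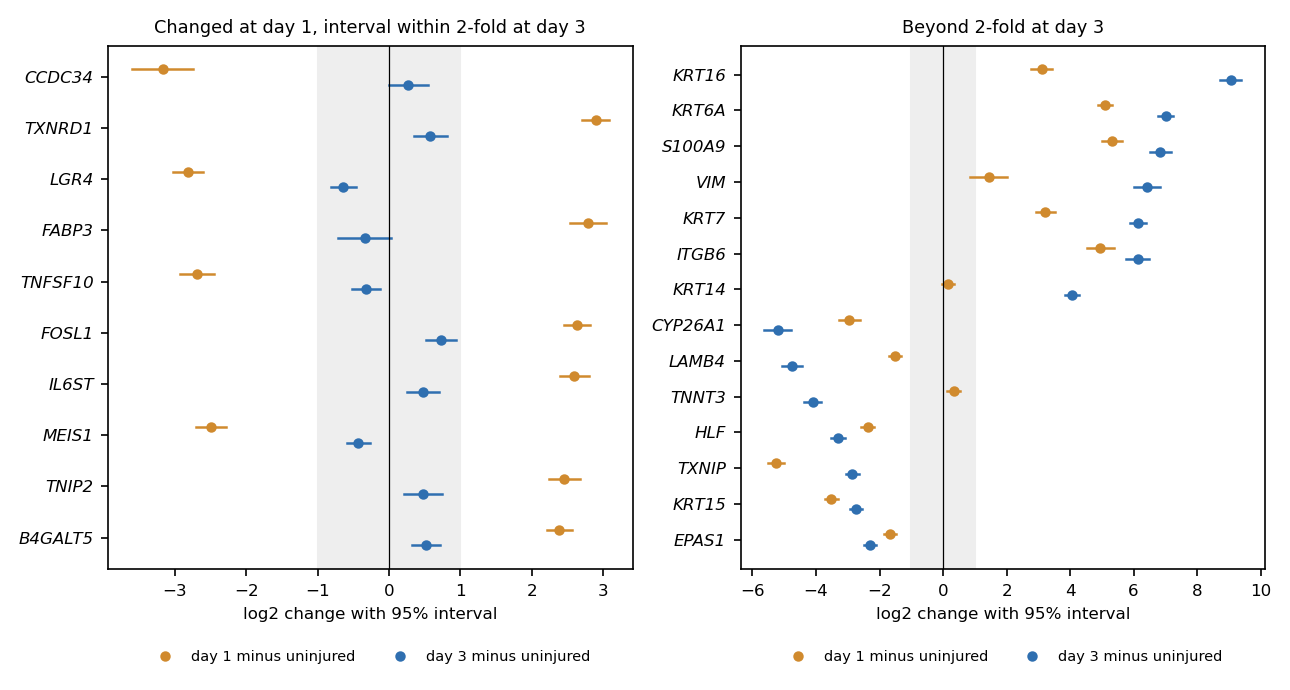
Points give the log2 change from uninjured at day 1 and day 3 with 95% intervals, for 10 genes within 2-fold of uninjured at day 3 (left) and 14 genes that were not (right); the grey band marks a change within 2-fold. On the left each day 3 interval lies inside the band, and on the right KRT16 at 9.06 and CYP26A1 at -5.21 mark the highest and the lowest day 3 values.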

How the data were processed

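Gene expression was measured per cell barcode in 6 samples of corneal epithelial cells on the 10x Genomics platform with the HIT-scISOseq library method. The authors deposited 1 gene by barcode count table per sample, whole-number counts with no normalisation, and name Cell Ranger, with no version, per the submitters' processing notes. The aligner, genome build, annotation, barcode filter, counting strand and any collapsing of reads by molecule were not given in the sources used. Isoform tables were not used here. The tables hold 14623 genes, 2158 of them under an Ensembl identifier and the others by symbol, give no coordinates, and had 0 columns without a sample. Total counts ranged from 3733442 to 4928103 per sample.

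All barcodes were summed per sample, since cells are not replicates; at most 2 barcodes were shared by any pair of samples. Scrublet in scanpy 1.11.5 called 0.468% to 1.06% of barcodes per sample as doublets, and these were left out only as an alternative. The 6 sums were fitted together in edgeR 4.0.16 (limma 3.58.1, R 4.3.3) with TMM, filterByExpr and the quasi-likelihood F test, group as the only term and Benjamini-Hochberg adjustment over all 12294 genes tested at 0.05. SE is the log2 change over the square root of F; values after ± are SE, and every group has n = 2 samples. A gene at 0 counts in a group gets a lower bound of its fold against 3 counts over the group; list medians with such genes at that bound were the same to 2 decimals. Detection is the expected share of barcodes with a count after thinning to 1000, and an even share is 100 times 1 minus the exponential of minus the mean per 1000 counts. On data simulated for day 3 against uninjured with 11734 genes, 32 of 50 changes of 1.5-fold, 45 of 50 of 2-fold and 50 of 50 each of 4-fold and 8-fold were called, with 7 false calls (3.80% of calls). The simulation gave every gene the same spread. It changed far fewer genes than the 55.2% called here, all drawn from genes with more counts. Its rates therefore need not hold for this comparison or for genes at few counts.

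The comparison, its 41 gene lists and tests were chosen with earlier results of these data known; genes absent as symbols or too low were not tested. Some lists share members. Named genes were up to 3 per list with the largest absolute change past the threshold, the 10 highest and the 10 lowest with average log2 CPM of at least 5 and separated samples, and 10 genes changed at day 1 whose day 3 interval lay within 2-fold; the text leaves some out, among them genes that lost their call in alternatives, and a few genes are not reported here. Other named genes were chosen after their values were seen. Alternatives were DESeq2 1.42.0, scaling to totals, no low-count filter, only the 2 groups, a replicate block, a test against 2-fold, thinned barcodes, no barcodes under 500 counts, no doublets, no mitochondrial transcripts, each sample left out, thinning to 500 or 2000 counts or none, and limits of 70% and 5%. Leaving out barcodes with 3 or more markers of another cell type was added after seeing the data. The labels do not say whether replicate numbers pair samples across groups, and the main fit did not pair them.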

Additional observations from a re-analysis of the deposited data

Results flagged for a closer look

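The following 7 genes differed from uninjured corneas in opposite directions on day 1 and day 3, and the difference between the days was itself tested in the same edgeR fit; the day 1 and day 3 comparisons share the uninjured samples. Values are log2 changes with SE, n = 2 samples a group.

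Of the genes low at day 1 and high at day 3, CCNB1 was at -1.52 ± 0.44 (adjusted p = 0.0098) on day 1 and 2.39 ± 0.23 (adjusted p = 5.1e-06) on day 3, and day 3 minus day 1 was 3.90 (adjusted p = 1.3e-06). MKI67 was at -1.95 ± 0.74 (adjusted p = 0.038) on day 1, where its 3.75 and 0 CPM overlapped the 3.39 and 12.4 CPM of uninjured samples, and at 1.73 ± 0.41 (adjusted p = 0.004) on day 3, a call lost with DESeq2. For MKI67 day 3 minus day 1 was 3.68 (adjusted p = 2.6e-04). The sterol enzyme LSS was at -0.70 ± 0.23 (adjusted p = 0.021) on day 1, and day 3 minus day 1 was 2.72 (adjusted p = 3.5e-07). EGFL7, a secreted protein of vessels, was at -0.79 ± 0.19 (adjusted p = 0.004) on day 1, and day 3 minus day 1 was 2.00 (adjusted p = 2.0e-06). SPINK5 had no count in either day 1 sample, so its fitted day 3 minus day 1 value of 15.31 is no bound; day 3 was at least 3022-fold above day 1 (adjusted p = 4.6e-09).

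Of the genes high at day 1 and low at day 3, MT3, a metallothionein, stood at 860.0 and 879 CPM uninjured, 4112 and 2255 CPM at day 1 and 172 and 203 CPM at day 3, and day 3 minus day 1 was -4.09 (adjusted p = 8.6e-08). Its 2 day 1 samples differed widely, and metallothionein genes are near copies of each other, so reads may be split among them. MT1X moved down by day 1, from a mean of 1414 CPM uninjured to 444 CPM. HEY2, a Notch target at few counts, stood at 2.39 and 3.66 CPM uninjured, 5.51 and 6.94 CPM at day 1 and 0.921 and 1.23 CPM at day 3, and day 3 minus day 1 was -2.50 (adjusted p = 8.4e-04). The day 3 call of HEY2 against uninjured (adjusted p = 0.03) was lost with DESeq2 (0.14) and without either day 3 sample or uninjured replicate 2 (0.071 to 0.19).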

How the results depend on the processing

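Counts of called genes moved with the method. For day 3 against uninjured, DESeq2 called 4213 genes (1663 lower), thinned barcodes 4098 of 9875 tested (2287 higher, 1811 lower), totals alone 1980 higher and 6202 lower, and the test against 2-fold 1433 (858 and 575). Thinned counts leave fewer genes to test; for the others the cause was not tested. Leaving out 1 of the 6 samples gave 2986 to 3774 higher and 2445 to 3555 lower, 5531 to 7329 in all, and 5794 to 6708 genes within 2-fold. For day 3 against day 1, thinning gave 4452 (2301 higher, 2151 lower), the 2-fold test 1588 (1004 and 584) and DESeq2 2352 lower. For day 1 against uninjured, the 2-fold test gave 2001 (952 and 1049), totals alone 2385 higher and DESeq2 2488 lower. Replicate numbers were shared across groups, but the labels do not say whether they pair samples. Deviations of same-numbered samples correlated at 0.105 (uninjured and day 1), -0.021 (uninjured and day 3) and -0.259 (day 1 and day 3) over 4385 genes. These values do not settle whether the samples were paired. For day 3 against uninjured with the replicate block, 3384 genes were higher and 3037 lower, 6421 in all, and 6375 were within 2-fold.

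Detection classes follow the thinning depth by construction. Higher genes in most cells numbered 75 at 500 counts, 248 at 2000, 499 unthinned and 83 with limits of 70% and 5%, and between 406, 1352, 1898 and 1588. Lower genes in most cells numbered 19, 87, 102 and 17 in the same order, and between 153, 875, 1381 and 1006. Unthinned, 1148 higher and 1764 lower genes were in few cells.

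The following values changed sign. With totals alone the log2 change was -0.27 for COL17A1, -0.047 for KRT4, -0.024 for AREG, -0.056 for ITGA6, -0.16 for LMNA and -0.40 for BHLHE40, and list medians were -0.39 for TGF-beta and BMP, -0.014 for p53 targets, -0.36 for NRF2 targets, -0.14 for endoplasmic reticulum stress, -0.12 for junctions, -0.25 for retinoid genes, -0.38 for melanocyte and -0.20 for corneal endothelial markers. On thinned counts KRT12 was 0.041, TGF-beta and BMP -0.024, retinoid genes -0.19, epithelial markers 0.041 and melanocyte markers -0.30. Without barcodes holding markers of other cell types, TGF-beta and BMP was -0.023 and melanocyte markers -0.90. Without uninjured replicate 2, TGF-beta and BMP was -0.075 and retinoid genes -0.040. Melanocyte markers were -2.03 and -0.027 without day 3 replicate 1 and 2, and -0.17 without uninjured replicate 1. Over the samples left out, the medians ranged from -0.075 to 0.16 for TGF-beta and BMP, -0.040 to 0.27 for retinoid genes and -2.03 to 0.31 for melanocyte markers. Apart from the test against a 2-fold change, 115 of the 132 called genes that the naming rule gives were called under every alternative. Depth limits the genes at a few CPM, whose direction rests on few counts.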

Other observations

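Gene groups outside the lists above were noticed in the data and then described; as they were chosen after their values were seen, they are descriptions only. Of 19 circadian clock genes tested 15 were lower and 2 higher at day 3 (median log2 change -1.56; 28.8% of all genes tested were higher and 26.4% lower). The output factor DBP stood at 156 and 160.5 CPM uninjured, 14.3 and 13.3 CPM at day 1 and 24.2 and 21.6 CPM at day 3 (log2 change -2.79 ± 0.09, adjusted p = 7.8e-10). NR1D1, a repressor of the loop, stood at 154 and 152 CPM uninjured, 77.1 and 67.4 CPM at day 1 and 29.9 and 27.7 CPM at day 3 (log2 change -2.41 ± 0.09, adjusted p = 3.4e-09), and PER3 at 127 and 116 CPM uninjured, 46.5 and 50.5 CPM at day 1 and 23.7 and 23 CPM at day 3 (log2 change -2.37 ± 0.10, adjusted p = 4.7e-09). ARNTL, which NR1D1 is known to repress, moved the other way, at 3.99 and 5.93 CPM uninjured, 36.6 and 41.1 CPM at day 1 and 23 and 26.2 CPM at day 3 (log2 change 2.29 ± 0.20, adjusted p = 2.4e-06). The labels give no time of day.

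Of 18 genes known to respond to glucocorticoids 15 were lower and 1 higher (median -2.12). TSC22D3, also called GILZ, stood at 118 and 112 CPM uninjured, 19.2 and 23 CPM at day 1 and 15.2 and 15.4 CPM at day 3 (log2 change -2.90 ± 0.11, adjusted p = 2.2e-09). CEBPD stood at 491 and 458 CPM uninjured, 149.8 and 139 CPM at day 1 and 88.4 and 85.1 CPM at day 3 (log2 change -2.45 ± 0.08, adjusted p = 1.2e-09), SOCS3 at 233 and 253 CPM uninjured, 98.5 and 132 CPM at day 1 and 37.3 and 31.1 CPM at day 3 (log2 change -2.82 ± 0.14, adjusted p = 1.8e-08) and GADD45G at 144 and 155 CPM uninjured, 28.2 and 35.8 CPM at day 1 and 16.1 and 13.7 CPM at day 3 (log2 change -3.32 ± 0.12, adjusted p = 1.8e-09). Some of these genes also respond to other signals, and several stand in both lists or in lists above.

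Other single genes with large changes were CRTAC1, a cartilage acidic protein, at 1330.2 and 1324 CPM uninjured, 1162 and 1306 CPM at day 1 and 210.2 and 184 CPM at day 3 (6.73-fold lower, log2 change -2.75 ± 0.10, adjusted p = 1.5e-09), and SOD3, the extracellular superoxide dismutase, at 265 and 299.7 CPM in the uninjured samples and 60.1 and 49.5 CPM at day 3 (5.15-fold lower, log2 change -2.36 ± 0.10, adjusted p = 8.4e-09). NTRK2, a neurotrophin receptor, stood at 96.4 and 93.8 CPM in the uninjured samples and 11.7 and 16.9 CPM at day 3 (6.64-fold lower, log2 change -2.74 ± 0.13, adjusted p = 1.3e-08). Higher at day 3 were CYP1B1, a cytochrome P450, at 4.78 and 6.8 CPM uninjured, 6.39 and 7.77 CPM at day 1 and 169.7 and 183 CPM at day 3 (30.4-fold higher, log2 change 4.90 ± 0.13, adjusted p = 1.8e-10), and TYMP, thymidine phosphorylase, at 9.56 and 10.5 CPM uninjured, 35 and 38 CPM at day 1 and 201 and 155 CPM at day 3 (17.8-fold higher, log2 change 4.15 ± 0.15, adjusted p = 1.9e-09). The calcium-binding protein S100A4 stood at 6582 and 6597 CPM in the uninjured samples and 17749 and 18126 CPM at day 3 (2.72-fold higher, log2 change 1.44 ± 0.11, adjusted p = 6.2e-07). Its relative S100A6 stood at 5619 and 5413 CPM in the uninjured samples and 16015 and 18270.0 CPM at day 3 (3.11-fold higher, log2 change 1.64 ± 0.15, adjusted p = 3.1e-06).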
